A study of Rattus norvegicus with 12 samples.

Results

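Esrp1, Esrp2, Elf3, Grhl2, Epcam, Pkp3, Lad1, Cldn3, Cldn4 and Cldn6 are genes of epithelial cells that build or hold together cell contacts, or set the RNA splicing and transcription of the epithelial state. These 10 genes were selected by their names in a table of 32545 rat genes, and all 10 had enough counts to be tested. The list was drawn up with earlier results from the same libraries known, and which values led to it is not recorded. Their levels in the immortalized cells and in the parental fibroblasts are therefore given as a description without a test. The p-values for the media come from fits over all genes and are no independent support for the choice of the list.

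RNA was sequenced from 12 rat heart cell cultures in 4 groups of 3 biological replicates. RCF are primary cultured rat cardiac fibroblasts, wild type and untreated, which served as the controls. GS are cardiac fibroblasts with viral overexpression of Sall4 and Gata4, immortalized and kept undifferentiated without treatment. GS_diff1 are GS cells in CMM medium, which the labels call cardiomyocyte differentiation, and GS_diff2 are GS cells in CMM medium with EGM2 solution, called cardiomyocyte and endothelial differentiation. All groups except RCF carry the viral factors and the immortalized state, and the labels name no cells with an empty virus and no GS cultures matched in time to the media. Effects of the factors, of the virus and of immortalization cannot be told apart, nor can effects of a medium and of time in culture. Whether GS cells are 1 clone is not stated in the labels.

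Libraries held 16255682 to 23117864 counts. Levels are in CPM, the normalised read count at a fixed depth after TMM scaling, with mean ± SD over n = 3 libraries. Log2 fold changes carry their standard error after the ±. Their adjusted p-values, with a threshold of 0.05, come from edgeR's quasi-likelihood fit of 14399 genes. Sall4, the check of the labels, had 0 counts in the RCF libraries and 1328 to 5363 in the others, and Gata4 went from 206 ± 3.43 CPM in RCF to 595 ± 7.21 in GS. Viral and rat transcripts of both cannot be separated. The 11 fibroblast markers examined, among them Col1a1, Pdgfra and Vim, summed to 30100 to 52100 CPM in every library. Col1a1 carried most of that sum, and single markers moved: decorin (Dcn) was at 32.8 CPM in RCF and 1.00 or less in the other groups. Pdgfrb had 1097 CPM in GS and 91.4 in GS_diff2, and Lum 11.2 CPM in RCF and 116 in GS.

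Epithelial cells are held to one another by tight junctions, adherens junctions and desmosomes and to the basement membrane by anchoring complexes. Claudins form the tight junction strands, and their mix sets which ions pass. Esrp1 and Esrp2 are RNA-binding proteins that direct epithelial splice forms of genes such as Fgfr2, Cd44 and Ctnnd1, and cells that take on a mesenchymal state shut them down. Grhl2 and Elf3 are transcription factors of epithelia. Fibroblasts, as mesenchymal cells, normally carry little of this program.

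Of the 10 genes, 6 had 0 counts in every RCF library, and a further 2 had 1 count in the 3 RCF libraries together. All of these 8 were detected in each GS, GS_diff1 and GS_diff2 library. Esrp2 was already present in RCF and was higher in every other library, while Cldn3 was higher in RCF than in GS. Thus 9 of the 10 had GS libraries all above RCF, where 36.0% of all tested genes did, and 1 had them all below, where 38.2% did. This contrast may have been used to draw up the list, so nothing is read from these counts. The same holds for the 6 genes without counts in RCF. Among all tested genes, 111, or 0.771%, had no count in RCF and a mean of at least 1 CPM in GS. Genes at 0 in RCF enter the test only through other groups. In these bulk samples, fewer cells that express a gene and less RNA per cell cannot be told apart.

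**Figure D1:**
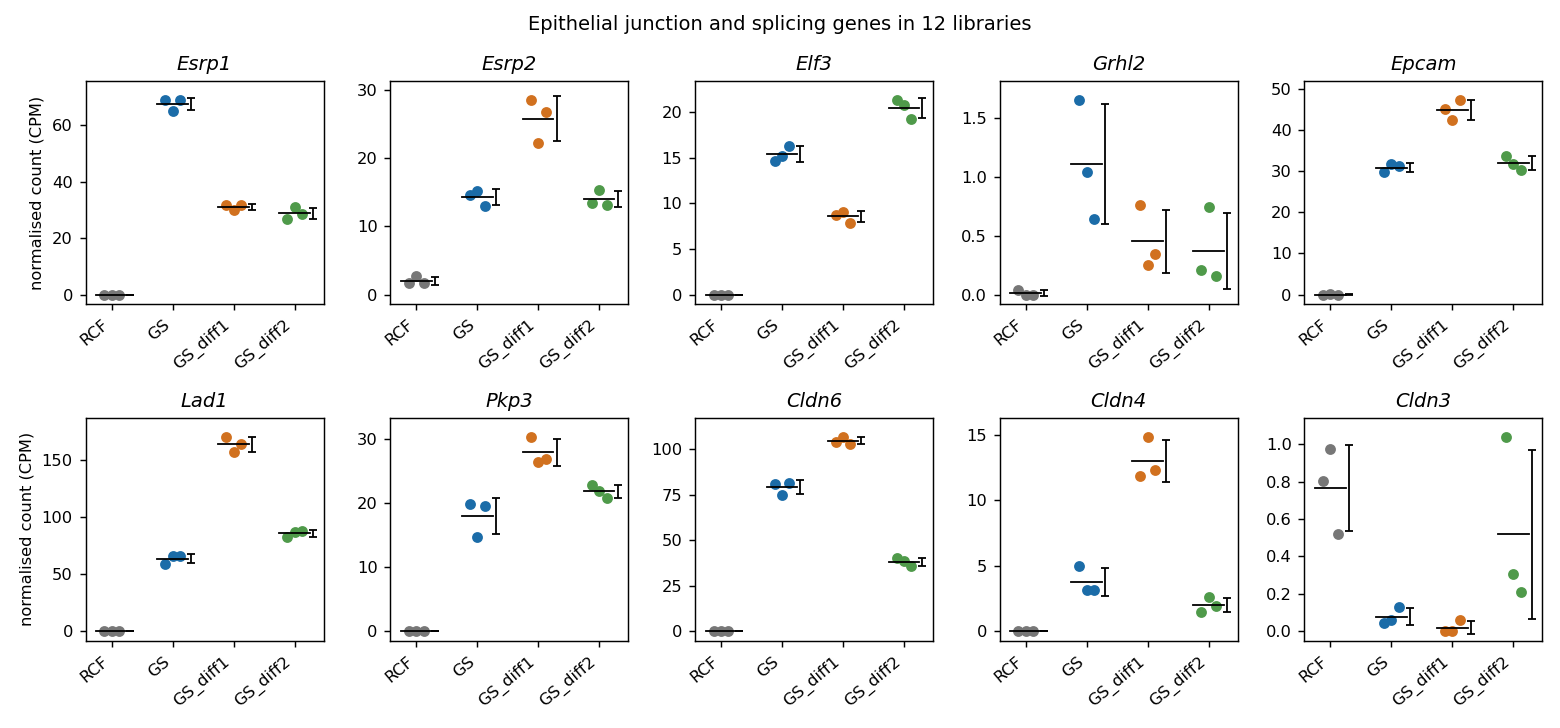
Normalised counts (CPM, linear axes with a separate scale for each gene) of the 10 genes in the 12 libraries. Points are libraries, horizontal lines are means and bars are SDs of 3 libraries. RCF sits at or near 0 for all genes but Esrp2 and Cldn3, GS_diff1 is highest for Epcam, Lad1, Pkp3, Esrp2, Cldn6 and Cldn4, and GS is highest for Esrp1.

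Esrp1 (ENSRNOG00000008184, Rnor_6.0 chromosome 5, 24576991 to 24631698, minus strand) was the splicing factor with the higher level in GS. Its counts were 0 in each of the 3 RCF libraries. The GS libraries were at 68.8, 65.0 and 68.8 CPM, the GS_diff1 libraries at 31.7, 29.9 and 31.8, and the GS_diff2 libraries at 27.0, 30.9 and 28.7. GS thus stood above both media without overlap, and the 2 media overlapped. A floor of 3 counts for each RCF library puts GS at least 480-fold, GS_diff1 at least 221-fold and GS_diff2 at least 205-fold higher. Such bounds cover counting error only. Esrp1 fell 2.17-fold from GS to GS_diff1 (log2 -1.12 ± 0.0717, adjusted p = 7.64e-14) and 2.34-fold from GS to GS_diff2 (log2 -1.23 ± 0.0719, adjusted p = 8.7e-15). Between the media the log2 difference was -0.11, with a 95% interval from -0.259 to 0.0432 (adjusted p = 0.206).

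Esrp2 (ENSRNOG00000023177, chromosome 19, 38113412 to 38120578, minus strand), the paralog with an overlapping role, did not follow Esrp1. It was at 1.73, 2.72 and 1.70 CPM in RCF and at 14.6, 15.2 and 12.9 in GS, 6.95-fold higher in the mean. In GS_diff1 it was at 28.4, 22.1 and 26.7 CPM, and in GS_diff2 at 13.5, 15.3 and 13.2. GS_diff1 was therefore above all other groups, RCF below all, and GS and GS_diff2 overlapped. Esrp2 rose 1.80-fold from GS to GS_diff1 (log2 0.85 ± 0.128, adjusted p = 1.05e-06) and was 1.84-fold lower in GS_diff2 than in GS_diff1 (adjusted p = 5.59e-07). GS_diff2 and GS differed by log2 -0.03, with a 95% interval from -0.294 to 0.238. The last 592 bases of Esrp2 overlap Nfatc3 on the other strand, and Nfatc3 was at 84.7 ± 2.15 CPM in RCF. Whether the authors counted by strand is not given in the sources used here. The part of Nfatc3 reads in the Esrp2 level of any group, the low RCF level among them, was therefore not tested.

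The balance of the 2 paralogs therefore changed with the medium. Per kilobase of gene length, Esrp1 was 4.87 ± 0.537 times as abundant as Esrp2 in GS, 1.25 ± 0.122 times in GS_diff1 and 2.11 ± 0.104 times in GS_diff2. The GS libraries ranged from 4.37 to 5.44, GS_diff1 from 1.14 to 1.38 and GS_diff2 from 2.04 to 2.23, with no overlap among the 3 groups. Added together per kilobase, they came to 21.0 ± 0.417 CPM for GS, 14.5 ± 1.09 for GS_diff1, 10.9 ± 0.764 for GS_diff2 and 0.516 ± 0.146 for RCF. Any Nfatc3 reads counted as Esrp2 would enter these ratios and sums. Isoforms cannot be read from counts per gene, so the splicing of their targets was not measured here.

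Elf3 (ENSRNOG00000006330, chromosome 13, 52083859 to 52088780, minus strand), an ETS factor of epithelia, answered the 2 media in opposite directions. It had 0 counts in RCF. Its levels were 14.6, 15.2 and 16.3 CPM in GS, 8.70, 9.08 and 7.88 in GS_diff1, and 21.3, 20.8 and 19.2 in GS_diff2. The 4 groups did not overlap, with GS_diff2 highest, then GS, then GS_diff1. Elf3 fell 1.79-fold from GS to GS_diff1 (log2 -0.84 ± 0.126, adjusted p = 1.39e-06) and rose 1.33-fold from GS to GS_diff2 (log2 0.41 ± 0.122, adjusted p = 0.00428). The media differed 2.38-fold (adjusted p = 9.71e-10).

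Grhl2 (ENSRNOG00000007000, chromosome 7, 76059386 to 76197856, plus strand), a grainyhead factor that maintains junction genes in epithelia, stayed at the edge of detection. Its counts were 1, 0 and 0 in RCF, 36, 18 and 10 in GS, 16, 5 and 6 in GS_diff1, and 4, 17 and 3 in GS_diff2. Only in GS, where it was highest, did all 3 libraries reach the minimum of 10 in the filter on low counts. Grhl2 thus entered the test mainly through GS, which favours lower calls against GS. GS was at 1.11 ± 0.508 CPM, GS_diff1 at 0.454 ± 0.27 and GS_diff2 at 0.369 ± 0.326, and neighbouring groups in this order overlapped. The fit gave log2 -1.55 ± 0.597 in GS_diff2 against GS (adjusted p = 0.0233), which passed the threshold. That call ended without GS replicate 1 (adjusted p = 0.163), GS_diff2 replicate 1 (adjusted p = 0.0998) or GS_diff2 replicate 3 (adjusted p = 0.113). In GS_diff1 against GS it was log2 -1.29 ± 0.588 (adjusted p = 0.0568), and it passed with only the libraries of both groups (adjusted p = 0.0278), without GS replicate 3 (adjusted p = 0.0382) and without GS_diff1 replicate 1 (adjusted p = 0.0258). Per kilobase, Grhl2 was at 0.207 CPM in GS against 7.48 for Elf3.

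Epcam (ENSRNOG00000015667, chromosome 6, 11282216 to 11298180, minus strand) encodes an adhesion molecule of epithelial membranes that binds claudins. Its RCF counts were 0, 1 and 0. It was at 29.6, 31.7 and 31.2 CPM in GS, 45.1, 42.3 and 47.1 in GS_diff1, and 33.7, 31.8 and 30.2 in GS_diff2. GS_diff1 stood above the others, and GS and GS_diff2 overlapped. Epcam rose 1.46-fold from GS to GS_diff1 (log2 0.54 ± 0.0801, adjusted p = 7.88e-07). The difference of GS_diff2 from GS was log2 0.05, with a 95% interval from -0.116 to 0.215.

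Lad1 (ENSRNOG00000009144, chromosome 13, 52645257 to 52659619, plus strand) encodes ladinin, a protein of the anchoring filaments that tie epithelia to their basement membrane. RCF had 0 counts. The GS libraries were at 59.0, 65.6 and 66.0 CPM, the GS_diff1 libraries at 170.1, 156.9 and 164.1, and the GS_diff2 libraries at 82.4, 86.8 and 88.2. The groups did not overlap, in the order GS_diff1, GS_diff2, GS and RCF. Lad1 rose 2.58-fold from GS to GS_diff1 (log2 1.37 ± 0.0522, adjusted p = 4.9e-19) and 1.35-fold from GS to GS_diff2 (log2 0.44 ± 0.053, adjusted p = 3.47e-08). At 164 ± 6.59 CPM, its level in GS_diff1 was at least 1160-fold above the RCF floor.

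Pkp3 (ENSRNOG00000015152, chromosome 1, 213886775 to 213897783, plus strand) encodes plakophilin 3 of the desmosome plaque. It had 0 counts in RCF. Levels were 19.8, 14.8 and 19.5 CPM in GS, 30.3, 26.5 and 27.0 in GS_diff1, and 22.8, 21.9 and 20.7 in GS_diff2. The order was that of Lad1, again without overlap, although GS_diff2 lay close to GS. Pkp3 rose 1.55-fold from GS to GS_diff1 (log2 0.63 ± 0.109, adjusted p = 1.2e-05). Its rise from GS to GS_diff2 was 1.21-fold (adjusted p = 0.0295), and that call ended without GS replicate 2 (adjusted p = 0.235), GS_diff2 replicate 1 (adjusted p = 0.092) or GS_diff2 replicate 2 (adjusted p = 0.0641).

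Cldn6 (ENSRNOG00000003648, chromosome 10, 13000090 to 13002862, plus strand), a claudin of embryonic epithelia, was the most abundant of the 10 per gene length in GS, at 51.2 ± 2.37 CPM per kilobase. RCF had 0 counts. The GS libraries were at 81.1, 75.0 and 81.6 CPM, GS_diff1 at 104.3, 106.7 and 103.1, and GS_diff2 at 40.4, 38.6 and 35.9. No groups overlapped, and GS_diff2 was the lowest of the 3 groups with the viral factors. Cldn6 rose 1.32-fold from GS to GS_diff1 (log2 0.40 ± 0.0555, adjusted p = 3.76e-07) and fell 2.07-fold from GS to GS_diff2 (log2 -1.05 ± 0.0586, adjusted p = 2.79e-15). The media differed 2.73-fold (adjusted p = 1.39e-18).

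Cldn4 (ENSRNOG00000001476, chromosome 12, 24761210 to 24763005, plus strand), a claudin that tightens the barrier, moved the same way as Cldn6. Its counts were 0 in RCF, and its levels were 4.96, 3.12 and 3.16 CPM in GS, 11.9, 14.8 and 12.3 in GS_diff1, and 1.504, 2.58 and 1.93 in GS_diff2. The groups did not overlap. Cldn4 rose 3.45-fold from GS to GS_diff1 (log2 1.79 ± 0.231, adjusted p = 1.15e-07) and fell 1.87-fold from GS to GS_diff2 (log2 -0.90 ± 0.243, adjusted p = 0.00188). The 6.43-fold difference between the media (adjusted p = 1.09e-10) was the largest among the members with a mean of at least 1 CPM in a medium. Per kilobase, Cldn6 was 25.6 ± 5.84 times as abundant as Cldn4 in GS and 9.42 ± 0.952 times in GS_diff1, with GS libraries from 19.0 to 30.02 and GS_diff1 libraries from 8.35 to 10.2. In GS_diff2 the ratio was 23.3 ± 7.07, and its libraries, from 17.3 to 31.1, overlapped those of GS.

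Cldn3 (ENSRNOG00000046007, chromosome 12, 21831342 to 21832813, minus strand), like Cldn4 a barrier claudin, was lower in GS than in RCF, unlike the other members. Its counts were 19, 19 and 11 in RCF, 1, 1 and 2 in GS, 0, 0 and 1 in GS_diff1, and 20, 7 and 4 in GS_diff2. RCF, at 0.766 ± 0.229 CPM, was above GS, at 0.0775 ± 0.0448, without overlap, and RCF and GS_diff2, at 0.517 ± 0.453, overlapped. Cldn3 was therefore never above 1.04 CPM in a library. The fit called it higher in GS_diff2 than in GS (log2 2.70 ± 0.861, adjusted p = 0.00702), and that call ended without GS_diff2 replicate 1, the library with 20 counts (log2 1.73, adjusted p = 0.124). Cldn3 passed the filter on low counts through its RCF libraries, and with only the GS and GS_diff2 libraries it had no test. In GS, Cldn6 made up 96.0 ± 0.925% of the 3 claudins per kilobase, in GS_diff1 90.3 ± 0.912% and in GS_diff2 94.4 ± 0.606%.

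**Figure D2:**
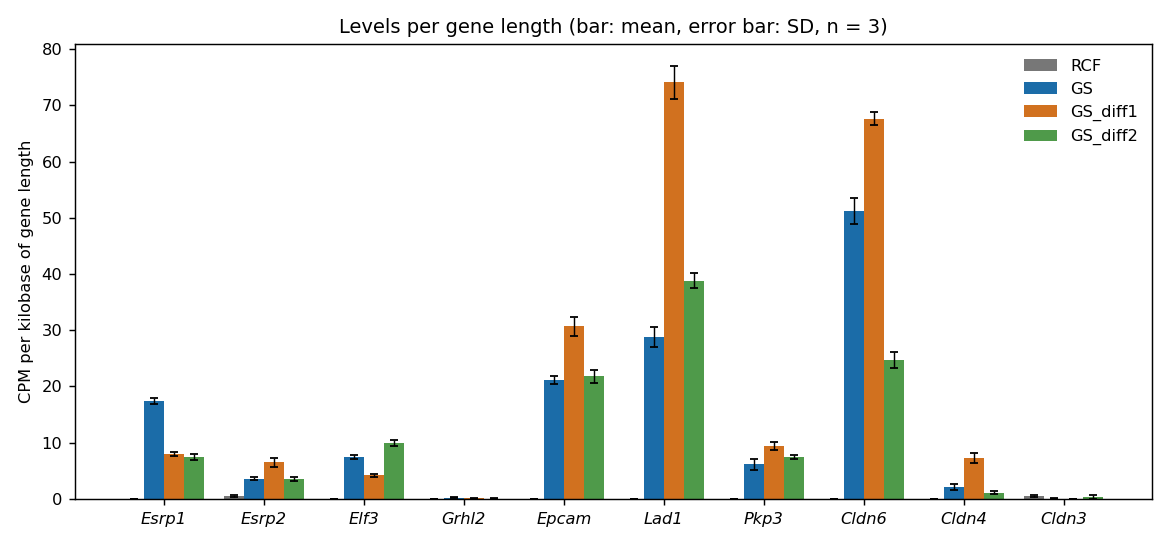
Levels of the 10 genes as CPM per kilobase of gene length, which lets genes be compared with one another. Bars are means and error bars SDs of 3 libraries in each group. In GS, Cldn6 and Lad1 are the 2 highest at 51.2 and 28.7, in GS_diff1 the order of these 2 is turned at 67.6 for Cldn6 and 74.1 for Lad1, and Grhl2 and Cldn3 are near 0 in all groups.

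Calls of the 10 genes in the media were counted beside the shares of all tested genes. Which values led to the list is not recorded, so no direction of the set is read from these counts. In GS_diff1 against GS, 6 of 10 were higher, where 32.0% of all tested genes were, 2 were lower, where 32.3% were, and 2 were not called. Their median log2 difference was 0.471 beside -0.00244 over all tested genes. In GS_diff2 against GS, 4 were higher (33.3% of all tested genes) and 4 lower (33.7%), with a median of 0.0105 beside -0.000237. Both counts lie near the shares of all tested genes. The higher genes include Pkp3 and Cldn3 and the lower ones Grhl2, whose calls ended when single libraries were left out. In GS_diff2 against GS_diff1, 2 were higher (32.1% of all tested genes) and 6 lower (31.5%), with a median of -0.424 beside 0.00394. The first 2 comparisons share the GS libraries. Esrp1 and Elf3 were the members called lower in GS_diff1, and the other transcription factor, Grhl2, was not called there.

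**Figure D3:**
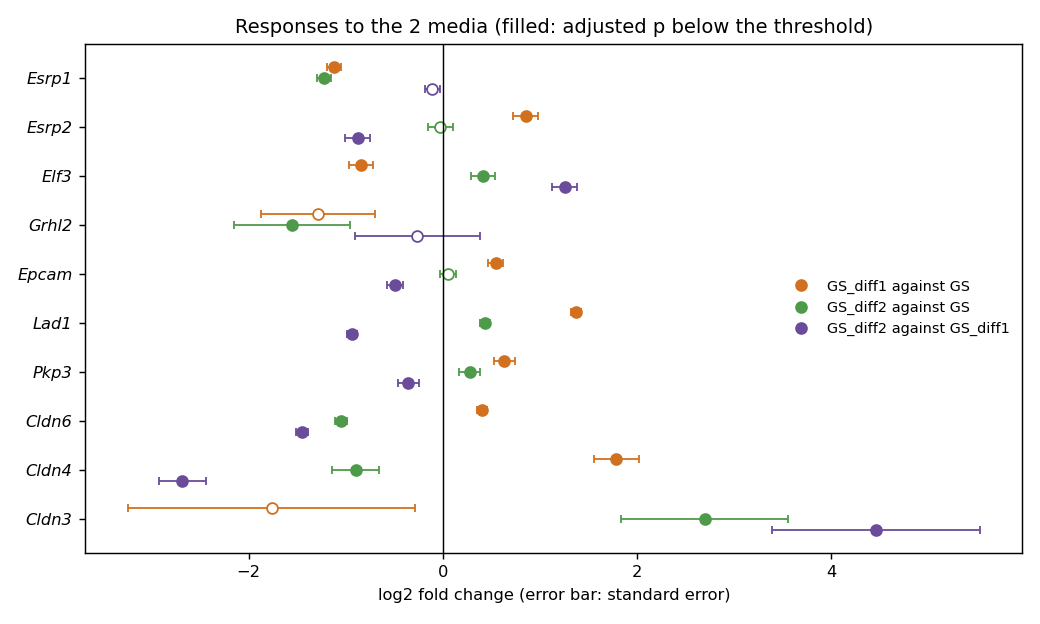
Fitted log2 fold changes of the 10 genes in 3 comparisons, with standard errors as bars. Filled points passed the adjusted p threshold of 0.05 and open points did not. Cldn6 and Cldn4 lie right of 0 in GS_diff1 and left of 0 in GS_diff2, Elf3 does the reverse, and Esrp1 lies left of 0 in both media. Grhl2 and Cldn3 have the widest bars.

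Several other genes of the same structures were examined from 5 lists of junction, desmosome, anchoring and epithelial regulator genes that contain none of the 10. Of 81 listed genes, 68 were tested, and in GS against RCF 51 were higher, where 35.0% of all tested genes were, and 11 lower, where 36.3% were. Their median log2 difference was 1.31 beside -0.0265 over all tested genes. Genes at 0 in RCF enter the test only through other groups, which favours higher calls. Tight junction genes were 14 higher and 0 lower of 16 tested. Adherens junction and polarity genes were 14 higher and 2 lower of 17, and desmosome genes 6 higher and 4 lower of 11. Anchoring and basement membrane genes were 6 higher and 2 lower of 9, and epithelial transcription factors and surface proteases 11 higher and 3 lower of 15.

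Cdh1, the adherens junction cadherin of epithelia, had 1, 7 and 3 counts in RCF and was at 211.0, 202.0 and 219.2 CPM in GS. It rose 1.51-fold in GS_diff1 (adjusted p = 1.18e-12) and 1.20-fold in GS_diff2 (adjusted p = 4.2e-06), and so did not fall with Cldn6 and Cldn4 in the second medium. Cldn7, a claudin that binds Epcam, had 0 counts in RCF and was at 14.4 ± 1.69 CPM in GS, at least 103-fold above the floor, and fell 4.22-fold in GS_diff1 (adjusted p = 1.03e-10). The tight junction genes Ocln, at 72.9 ± 5.36 CPM in GS, and F11r, at 117 ± 6.11, were 38.9-fold and 41.1-fold higher than in RCF (adjusted p = 1.65e-28 and 8.59e-12). The polarity genes Crb3, at 9.24 ± 0.422 CPM against 0, and Pard6b, at 215 ± 2.98 against 1.81 ± 0.407, were higher too (adjusted p = 2.68e-17 and 2.32e-32). Among partners of Pkp3, the desmosomal cadherin Dsg2 reached 51.5 ± 4.99 CPM in GS from 0.219 ± 0.262 in RCF, and Dsc2 was 6.21-fold higher (adjusted p = 4.13e-14 and 5.43e-24). Perp, a desmosome membrane protein, was 18.5-fold higher (adjusted p = 4.06e-15).

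Relatives of Grhl2 and Elf3 did not all move with them. Grhl1 and Grhl3 were called lower in GS than in RCF, at 0.823 against 2.24 CPM and 0.622 against 3.49 CPM, and were named after their values were seen. The epithelial factor Ovol2 had 0 counts in RCF and was at 8.10 ± 0.509 CPM in GS, at least 57.5-fold above the floor. The protease inhibitor Spint1, which controls matriptase on epithelial surfaces, was 290-fold higher (adjusted p = 8.97e-30). In the combined lists, 30 of 68 were higher and 21 lower in GS_diff1 against GS, beside 32.0% and 32.3% of all tested genes. In GS_diff2 against GS, 23 were higher and 27 lower, beside 33.3% and 33.7%. In GS_diff2 against GS_diff1, 17 were higher and 36 lower, beside 32.1% and 31.5% of all tested genes.

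**Figure D4:**
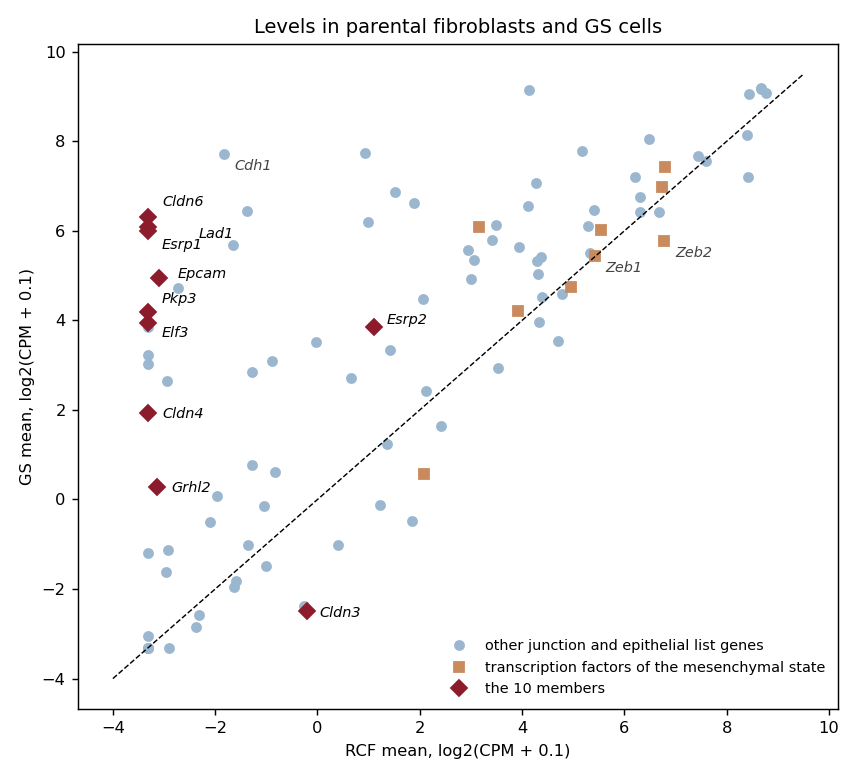
Mean levels in GS against mean levels in RCF as log2(CPM + 0.1), with the dashed line marking equal levels. Diamonds are the 10 genes, circles other junction and epithelial list genes and squares transcription factors of the mesenchymal state. The diamonds lie at the left edge above the line except Esrp2, which is nearer to it, and Cldn3, which is below it, and Zeb1 lies on the line.

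Transcription factors of the mesenchymal state, several of which repress junction genes, did not share a direction. Of 9 tested, 5 were higher and 3 lower in GS than in RCF, beside 35.0% and 36.3% of all tested genes. Zeb1 was at 43.1, 45.4 and 39.7 CPM in RCF and at 47.5, 44.7 and 38.2 in GS, and these ranges overlapped (adjusted p = 0.723). Zeb2 was 2.00-fold lower in GS (adjusted p = 8.23e-12) and Twist2 3.03-fold lower (adjusted p = 2.67e-05), while Snai2 was 7.70-fold higher at 67.7 ± 4.28 CPM (adjusted p = 5.52e-24). In GS_diff2 against GS, 4 of the 9 were higher and 3 lower, beside 33.3% and 33.7% of all tested genes. Zeb1 was 1.40-fold higher there (adjusted p = 9.94e-07), Snai2 3.57-fold lower (adjusted p = 1.3e-19) and Zeb2 1.65-fold lower (adjusted p = 1.13e-08). Cldn6, Cldn4 and Esrp1 were lower and Cdh1 higher in that comparison, and a link between these changes was not tested. In GS_diff1 Zeb1 was 1.20-fold lower (adjusted p = 0.0037), a call that ended without GS replicate 1 (adjusted p = 0.0634) or GS_diff1 replicate 2 (adjusted p = 0.052).

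Among other splicing regulators, 10 of 20 were higher and 5 lower in GS than in RCF, beside the same 35.0% and 36.3% of all tested genes. Rbm47, an RNA-binding protein of epithelia that acts on some of the same exons as the Esrp proteins, was 19.8-fold higher at 23.4 ± 1.87 CPM (adjusted p = 2.39e-22). It fell 1.80-fold in GS_diff2 (adjusted p = 2.15e-08). Mbnl3 was 10.6-fold higher (adjusted p = 1.74e-17) and the neuronal regulator Nova2 was at 1.86 ± 0.515 CPM against 0.0597 ± 0.0519 (adjusted p = 1.69e-09). Rbfox2 was 1.15-fold higher (adjusted p = 0.0173), which no longer passed when libraries were scaled by their totals alone (adjusted p = 0.235), with only the libraries of both groups (adjusted p = 0.0541), without RCF replicate 1 (adjusted p = 0.102) or without GS replicate 2 (adjusted p = 0.203).

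Genes known to be spliced by the Esrp proteins were 7 higher and 4 lower of 15 in GS against RCF at the level of the whole gene, beside 35.0% and 36.3% of all tested genes, with a median log2 difference of 0.0385. Fgfr2 was 1.77-fold higher (adjusted p = 1.37e-13), Slk 2.20-fold (adjusted p = 1.54e-19) and Enah 1.92-fold (adjusted p = 3.26e-17), and Nf2 was 1.87-fold lower (adjusted p = 1.76e-16). Cd44 gave no call between RCF, at 296 ± 6.42 CPM, and GS, at 291 ± 6.82 (adjusted p = 0.446), and it was called lower when libraries were scaled by their totals alone (log2 -0.12, adjusted p = 0.000286). In GS_diff2, Cd44 was at 1287 ± 9.91 CPM, 4.42-fold above GS (adjusted p = 2.85e-31), and Fgfr2 was 1.89-fold below GS (adjusted p = 1.48e-14).

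Markers of other cell types moved beside the 10 genes. Of 5 markers of simple epithelium, Krt20 reached a group mean of at most 0.0316 CPM, and the summed level was 1.01 to 1.80 CPM in RCF, 382 to 399 in GS, 1900 to 1920 in GS_diff1 and 427 to 439 in GS_diff2. Krt8 alone was at 201 ± 4.39 CPM in GS and 1159 ± 8.69 in GS_diff1, 5.77-fold higher (adjusted p = 6.85e-32), and Krt18 was 4.51-fold higher (adjusted p = 1.34e-28). The other tested markers of that list, Krt7 and Krt19, were 2.54-fold and 1.25-fold lower in GS_diff1 than in GS (adjusted p = 0.00247 and 0.0253). Of 6 markers of stratified epithelium in the table, Krt5 reached a group mean of at most 0.552 CPM, Krt14, Krt15 and Krt1 lay below that, and the sum was 3.25 to 4.67 CPM in RCF, 5.50 to 7.53 in GS, 15.9 to 16.5 in GS_diff1 and 7.75 to 8.36 in GS_diff2. The 13 markers of primitive and visceral endoderm, also an epithelium, summed to 1130 to 1160 CPM in RCF, 21200 to 22700 in GS, 8000 to 8090 in GS_diff1 and 8180 to 8270 in GS_diff2. Of 10 tested, 9 were higher and 1 lower in GS than in RCF, beside 35.0% and 36.3% of all tested genes. Dab2 was the lower marker, at 50.6 CPM in GS against 86.9 in RCF. Sox17 and Hnf4a, at 0 in RCF, enter the test only through other groups, which favours higher calls. Lama1 and Lamb1 made up most of the sum, Sox17 went from 0 to 710 CPM, Sox7 from 0.113 to 66.3 and Cubn from 0.728 to 92.1. Afp, Ttr and Apoa1 reached a group mean of at most 0.664 CPM. The 7 mesothelial markers, which include Krt8 and Krt19, summed to 65.4 to 67.4 CPM in RCF, 240 to 252 in GS, 1190 to 1210 in GS_diff1 and 375 to 384 in GS_diff2. Wt1, Lrrn4, Upk3b and Upk1b were called lower in GS than in RCF, and Msln was higher, at 6.45 against 2.77 CPM (adjusted p = 1.11e-09), and at 99.2 CPM in GS_diff2. In the order RCF, GS, GS_diff1 and GS_diff2, endothelial marker sums lay within 13.6 to 17.2, 13.6 to 15.9, 17.6 to 22.7 and 17.5 to 19.0 CPM. Leukocyte marker sums lay within 53.5 to 53.6, 22.6 to 26.6, 16.5 to 17.6 and 32.2 to 34.0 CPM in that order, and cardiomyocyte marker sums within 15.2 to 16.6, 2.89 to 3.09, 9.94 to 12.4 and 34.6 to 35.7 CPM. Single genes carried most of some of these sums: Tnnt2, at 34.1 CPM in GS_diff2, Cd14, at 23.3 CPM in GS, and Tek, at 12.2 CPM in GS. Of 6 tested leukocyte markers 5 were lower and 1, Cd14, higher in GS than in RCF, beside 36.3% and 35.0% of all tested genes. Adgre1, among the lower markers, went from 14.3 CPM to 0. The part of other cell types in the levels of the 10 genes was not tested.

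The profile of the 10 genes over the libraries was dominated by the step from RCF to the other groups. Pearson's r between a gene and the mean of the other 9, on centred log2 CPM over the 12 libraries, was 0.998 for Epcam, 0.997 for Pkp3, 0.995 for Cldn6 and 0.993 for Lad1. It was 0.804 for Grhl2 and -0.72 for Cldn3. Outside the list, the most similar of 10329 genes with at least 10 CPM in a group were Unc5cl (r = 0.998), the epithelial tyrosine kinase gene Ptk6 (0.998), the epithelial clathrin adaptor gene Ap1m2 (0.998), the matrix gene Tnn (0.998) and the myosin light chain gene Myl3 (0.998). Unc5cl, Ptk6 and Ap1m2 had 0 CPM in RCF and 14.4 to 27.9 CPM in GS. The points share 4 groups, so these values are descriptions of a shared on and off pattern.

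The genes lie on 8 chromosomes. Elf3 and Lad1 are on chromosome 13, with 556476 bases between them, and Cldn3 and Cldn4 on chromosome 12, with 2928396 bases between them in Rnor_6.0. Apart from Nfatc3, which overlaps Esrp2 and was 1.18-fold higher in GS (adjusted p = 0.000678), 20 nearest protein-coding neighbours were counted. Of these 15 were tested, and 8 were higher and 4 lower in GS than in RCF, beside 35.0% and 36.3% of all tested genes. Cldn9, whose end lies 148 bases from Cldn6, reached a group mean of at most 0.0936 CPM. Next to Pkp3, Sigirr, 617 bases away, was 8.54-fold higher (adjusted p = 1.13e-09) and B4galnt4, 4857 bases away, 6.07-fold higher (adjusted p = 2.92e-08). The troponin gene Tnnt2, 3376 bases from Lad1, was 7.69-fold lower in GS (adjusted p = 2.23e-18). Ncald beside Grhl2, Abhd11 and Wbscr27 beside Cldn4 and Tnfrsf12a beside Cldn6 were 1.42-fold to 2.18-fold higher, Kcnk12 beside Epcam was 6.27-fold lower, and Dpy19l4 beside Esrp1 and Rnpep beside Elf3 were 1.51-fold and 1.22-fold lower.

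Promoters of Cldn6, Cldn3 and Epcam are shown because they pair a claudin that was on in GS, one that was higher in RCF, and the surface marker whose profile was closest to the rest. Each is the 250 bases before the gene's start, 5′ to 3′, from RefSeq in the GRCr8 assembly, with every CACCTG or its reverse complement CAGGTG in capitals, the core that Zeb and Snai repressors are known to bind.
Cldn6, chr10:13215558-13215807, plus strand: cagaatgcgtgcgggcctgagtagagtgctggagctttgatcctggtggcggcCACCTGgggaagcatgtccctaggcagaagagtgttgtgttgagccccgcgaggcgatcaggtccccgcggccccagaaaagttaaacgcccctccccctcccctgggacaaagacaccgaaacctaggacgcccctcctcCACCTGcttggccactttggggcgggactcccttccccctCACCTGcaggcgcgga
Cldn3, chr12:27346548-27346797, minus strand: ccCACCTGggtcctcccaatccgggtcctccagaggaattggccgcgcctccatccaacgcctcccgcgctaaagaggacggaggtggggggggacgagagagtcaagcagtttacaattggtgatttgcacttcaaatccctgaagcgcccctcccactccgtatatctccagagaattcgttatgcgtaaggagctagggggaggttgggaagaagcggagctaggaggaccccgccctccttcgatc
Epcam, chr6:12649679-12649928, minus strand: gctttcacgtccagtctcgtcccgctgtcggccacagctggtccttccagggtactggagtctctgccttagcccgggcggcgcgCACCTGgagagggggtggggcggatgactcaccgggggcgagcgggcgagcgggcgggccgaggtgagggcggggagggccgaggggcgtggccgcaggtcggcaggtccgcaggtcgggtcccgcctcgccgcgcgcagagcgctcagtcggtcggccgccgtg
Promoters of Elf3, Epcam, Lad1, Cldn3 and Cldn6 were matched by symbol. No promoter was matched for Esrp1, Esrp2, Grhl2, Pkp3 or Cldn4, so these were not examined. All 5 held the core at least once, beside 15.9% of 33469 rat promoters of the same length and 17.9% of the 9046 with at least 59.2% G and C, the lowest value among the 5. Cldn6 held it 3 times, with first bases 197, 56 and 16 bases before the start. Cldn3 held it 248, Epcam 165, Elf3 176 and Lad1 27 bases before the start. A GC box (GGGCGG or CCGCCC) was in 4 of the 5, beside 30.5% of all promoters and 75.1% of those rich in G and C. None of the 5 held CCGGTT or AACCGG, the core of a grainyhead site (5.67% of all promoters, 9.31% of those rich in G and C), CCGGAA or TTCCGG, an ETS core (12.6% and 21.9%), or TATAAA or TTTATA, the TATA box (12.9% and 2.82%). The ETS and grainyhead cores share the letters CCGG, so a single stretch can hold both. Matches were sought on both strands and describe letters only. Cldn3, which was lowest in GS, and Cldn6, which was highest, both held the core.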

How the data were processed

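Total RNA of 12 rat cell cultures was sequenced after library construction with an Ovation kit (System v2), per the labels' protocols. The authors deposited a table of whole-number read counts per gene, not normalized, with symbols, positions and gene lengths. Bowtie 0.12.2 and the builds mm8 and Rnor_6.0 are named without roles, per the submitters' processing notes. The sources used here do not give the counting program, the annotation release or the use of strand. Gene lengths are the deposited ones, in bases, and serve only to set genes side by side.

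After TMM scaling, edgeR 4.0.16 (R 4.3.3, limma 3.58.1) fitted the counts by robust quasi-likelihood with a term per group over all 12 libraries. The filterByExpr rule (minimum count 10) left 14399 tested and 18146 untested genes. Contrasts were two-sided, with Benjamini-Hochberg adjustment over all tested genes. DESeq2 1.42.0, library totals, no filter, fits of both groups only, a replicate block and leaving out each library were the alternatives. Log2 CPM for correlations used a prior count of 2. The fit was also run on simulated counts that gave every gene the same spread. The data differ in this, and no result here rests on that run. Depth was 16255682 to 23117864 counts, so 1 library's floor of 3 counts was 0.127 to 0.193 CPM.

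The 10 members and 16 gene lists (8 of pathways, 8 of cell type markers) were chosen with earlier results of these data known. Of 185 listed symbols, 181 matched the table, 8 through other names in RefSeq's GRCr8 gene table. The text names all members, up to 3 called genes per pathway list with the largest change in GS against RCF and at least 1 CPM, up to 2 per medium comparison, 8 set genes, the 5 genes most like the members, and called neighbours with at least 1 CPM. Some genes that this rule names are not reported here. Same-numbered libraries were taken as unpaired: the correlation of their deviations from group means was -0.045 to 0.0493. Within groups, the variance between 2 libraries was 4.44 to 7.57 times that of sampling noise, over genes with at least 50 counts in the 2 libraries together.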

Additional observations from a re-analysis of the deposited data

Results flagged for a closer look

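Elf3, Cldn4 and Cldn6 moved in opposite directions in the 2 media, each against GS, and the difference between the media passed the test itself. The log2 difference of GS_diff2 from GS_diff1 was 1.25 for Elf3 (-0.84 in GS_diff1 and 0.41 in GS_diff2 against GS, adjusted p = 9.71e-10). It was -2.69 for Cldn4 (1.79 and -0.90, adjusted p = 1.09e-10) and -1.45 for Cldn6 (0.40 and -1.05, adjusted p = 1.39e-18). In each case all 3 libraries of one medium lay on one side of the GS libraries and all 3 of the other medium on the other side.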

How the results depend on the processing

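Of 506 values of the 10 members in the 3 medium comparisons under 17 alternatives, 496 kept their direction and side of the threshold, 7 no longer passed it, 3 newly passed it and 0 reversed. The changes concern Grhl2, Pkp3 and Cldn3 and are given beside them. With only the libraries of both groups, Cldn3 did not pass the low-count filter in GS_diff2 against GS_diff1, so the members called higher in GS_diff2 against GS_diff1 were 1 instead of 2. Cldn3 did not pass it in GS_diff2 against GS either, so its higher call there was lost as well. In the fit of all libraries, Cldn3 passed the filter through its RCF counts and Grhl2 mainly through its GS counts. Without GS_diff2 replicate 1, those called higher in GS_diff2 against GS were 2 instead of 4. Leaving out each library in turn gave 2 to 4 higher and 3 to 4 lower in GS_diff2 against GS. It gave 6 higher and 2 to 3 lower in GS_diff1 against GS, and 48 to 51 higher and 10 to 12 lower junction and epithelial genes in GS against RCF. The replicate block changed no call of a member: 6 higher and 2 lower remained in GS_diff1 against GS. The labels name no pairing behind the numbers, and same-numbered libraries did not deviate together. Depth limits Grhl2, Cldn3 and every level under about 0.2 CPM.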

Other observations

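Genes that anchor epithelia to the basement membrane, the partners of Lad1 in function, were more often higher than lower with EGM2. In GS_diff2 against GS, 6 of 9 tested genes of that list were higher and 1 lower, beside 33.3% and 33.7% of all tested genes, with a median log2 difference of 0.644. Itgb4, the integrin chain of hemidesmosomes, had 2.56 ± 0.676 CPM in RCF against 10.01 ± 0.72 in GS. GS_diff1 had 16.0 ± 1.79 CPM and GS_diff2 61.9 ± 5.24, the latter 6.20-fold above GS (adjusted p = 3.7e-18). The laminin chain gene Lamb3 was 1.56-fold above GS (adjusted p = 9.76e-05) and Itga6, the partner of Itgb4, 2.29-fold at 308 ± 4.11 CPM (adjusted p = 2.64e-22). Lad1 itself rose less in that medium than in CMM medium alone.

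A few epithelial genes of low level also changed with the media. GS had 0.61 ± 0.0518 CPM of Ehf, an ETS relative of Elf3, and GS_diff1 had 3.49 ± 0.314 (adjusted p = 6.09e-06). Ehf was thus higher and Elf3 lower in GS_diff1 against GS. GS_diff2, with 0.74 ± 0.129 CPM of Ehf, gave no call against GS (adjusted p = 0.605), although Elf3 was higher there. RCF was lowest for both genes, with 0.13 ± 0.114 CPM of Ehf and 0 counts of Elf3. Evpl, envoplakin of the desmosome, was at 4.29 ± 1 CPM in GS_diff2 and 0.56 ± 0.386 in GS_diff1 (adjusted p = 2.33e-05 between the media). Cldn10 was at 0.356 ± 0.293 CPM in GS and 1.61 ± 0.337 in GS_diff1 (adjusted p = 0.000991).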
